A study of Mus musculus with 26 samples.

Results

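The endoplasmic reticulum (ER) chaperone and stress genes are 10 mouse genes, Hspa5, Hsp90b1, Calr, Canx, Pdia3, Pdia4, Pdia6, Ddit3, Xbp1 and Dnajb9, followed here in transplanted HCmel3 melanomas with and without T cell therapy. The members were chosen by name, and every array probe annotated to them was taken, which gave 14 of 45260 probes. After a filter on detection, 12 probes of 9 genes remained, among 9553 genes tested in all. The tumours grew in C57BL6 mice and were excised from the skin, frozen and measured with 1 Illumina mouse bead array (MouseWG-6 v2.0) per sample. A first deposited table held 8 non-treated (NT) and 8 early-during-treatment (EDT) tumours, the latter from day 12 to day 20 of therapy. A second table held 5 non-treated tumours (ctrl) and 5 tumours labelled as relapses after therapy. Therapy joined cyclophosphamide conditioning, transferred CD8+ pmel-1 T cells with a transgenic receptor for the melanocyte antigen gp100, an adenovirus vaccine carrying gp100, and CpG with polyI:C, and no group received any of these alone. Titles in the second table mark its samples as analysed again, without saying whether RNA was measured anew. The labels do not state whether each sample was a different animal, and the p-values therefore reflect only sample-to-sample spread, part of which may be technical.

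The ER folds and quality-checks proteins that are secreted or placed in membranes. Its lumen holds the Hsp70 chaperone BiP (Hspa5), the Hsp90 chaperone GRP94 (Hsp90b1), the lectin chaperone calreticulin (Calr) and protein disulphide isomerases (Pdia3, Pdia4, Pdia6), and its membrane holds the lectin chaperone calnexin (Canx). When unfolded proteins accumulate, sensors in the ER membrane start the unfolded protein response, whose transcription factors ATF6 and spliced XBP1 raise chaperone genes, and whose PERK arm, through ATF4, raises Ddit3 (CHOP), a transcription factor linked to cell death. Calreticulin and Pdia3 (ERp57) also sit in the peptide-loading complex that prepares MHC class I molecules for display to CD8+ T cells.

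Promoters of several members hold the sequence through which ATF6 is known to act, and these stretches are shown because ER chaperones are textbook targets of that response. RefSeq promoters of build GRCm38.p6 were matched for 10 of 10 genes. In the 250 bases before each start, on both strands, the ER stress response element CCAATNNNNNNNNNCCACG was found in 5 of the 10 genes and in 37 of 32851 promoters, which is 0.113%. The related element ATTGGNCCACG was in 0 of the 10 and in 0.0304% of promoters, the element TGACGTGG in 0 of the 10 and in 0.563%, and the ATF4-type site TGATGCAA in 0 of the 10 and in 0.791%. Capitals below mark each element in the gene's own direction, and CGTGG at the left end shows a match on the opposite strand. The stretches lie at chr2:34772005-34772063 (plus strand, Hspa5), chr10:86705513-86705676 (minus strand, Hsp90b1, with 2 elements), chr8:84847055-84847113 (minus strand, Calr), chr11:50325780-50325838 (minus strand, Canx) and chr12:17266471-17266529 (plus strand, Pdia6).
Hspa5: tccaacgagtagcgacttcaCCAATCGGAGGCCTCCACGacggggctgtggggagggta
Hsp90b1: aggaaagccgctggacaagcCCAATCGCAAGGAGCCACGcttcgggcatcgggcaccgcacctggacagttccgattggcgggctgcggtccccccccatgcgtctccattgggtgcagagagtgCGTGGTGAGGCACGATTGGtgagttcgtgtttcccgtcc
Calr: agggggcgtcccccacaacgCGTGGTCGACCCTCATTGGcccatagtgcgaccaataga
Canx: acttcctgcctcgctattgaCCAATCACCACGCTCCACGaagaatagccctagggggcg
Pdia6: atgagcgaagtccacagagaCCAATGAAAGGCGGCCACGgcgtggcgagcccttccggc

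Arrays detected between 14064 and 18323 probes each, and the number of arrays limits the precision. Markers of several cell types differed between the groups. All 7 macrophage markers rose in both comparisons, as did 5 of 5 tested T cell markers. Of the 6 T cell markers with a probe, tested or not, 5 were detected on 0 NT arrays and 6 on 0 ctrl arrays. A probe passed the detection filter if 1 group detected it, so tested markers absent without therapy entered through the treated tumours. That filter largely fixed the T cell marker count in advance, and the count is no separate evidence of a rise. The tested dendritic, B and plasma cell markers below passed the same filter. In EDT 3 of 4 tested dendritic cell, 2 of 4 fibroblast and 1 of 2 B and plasma cell markers rose as well, and in relapse 1 of 4, 0 of 4 and 2 of 2. Of endothelial, keratinocyte and skeletal muscle markers, 0 of 2 tested each passed in either comparison. Over all genes 14.5% passed higher and 15.1% lower in EDT, and 13.3% and 17.5% in relapse. The mean keratinocyte marker level varied widely within groups, from 4.52 to 10.81 in NT and from 4.80 to 12.04 in EDT. The mean T cell marker level ran from 4.54 to 5.19 in NT, from 6.88 to 9.94 in EDT, from 4.32 to 4.599 in ctrl and from 5.03 to 6.86 in relapse, as log2 normalized signal. All 8 melanocyte markers fell in relapse, where their mean level lay between 7.23 and 11.65 against 12.58 to 13.08 in ctrl, and Tyr was detected on 0 relapse arrays. In EDT, 1 of the 8 fell, and their mean level lay between 10.79 and 12.88 against 12.56 to 12.89 in NT. In bulk tumours, fewer cells of a type and less RNA per cell cannot be told apart, and the part of this shift in the values below was not tested.

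None of the 9 measured ER genes passed the test between EDT and NT tumours. In limma's moderated test with Benjamini-Hochberg adjustment over 9553 genes, 0 of 9 passed an adjusted p of 0.05 and 0 of 9 had an unadjusted p under 0.05, while 29.6% of all genes were called, 14.5% higher and 15.1% lower. Adjusted p-values ran from 0.173 to 0.974. The members' median log2 change was 0.12, against -0.05 over all genes tested, and 6 of 9 changes were above 0. The 95% intervals of the 9 changes lay between -0.55 and 0.61 on the log2 scale, so that a change beyond 1.53-fold up or 1.46-fold down was outside the interval of each. In 0 of 9 genes were the groups free of overlap, against 4.58% of all genes for higher and 1.49% for lower values.

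**Figure D1:**
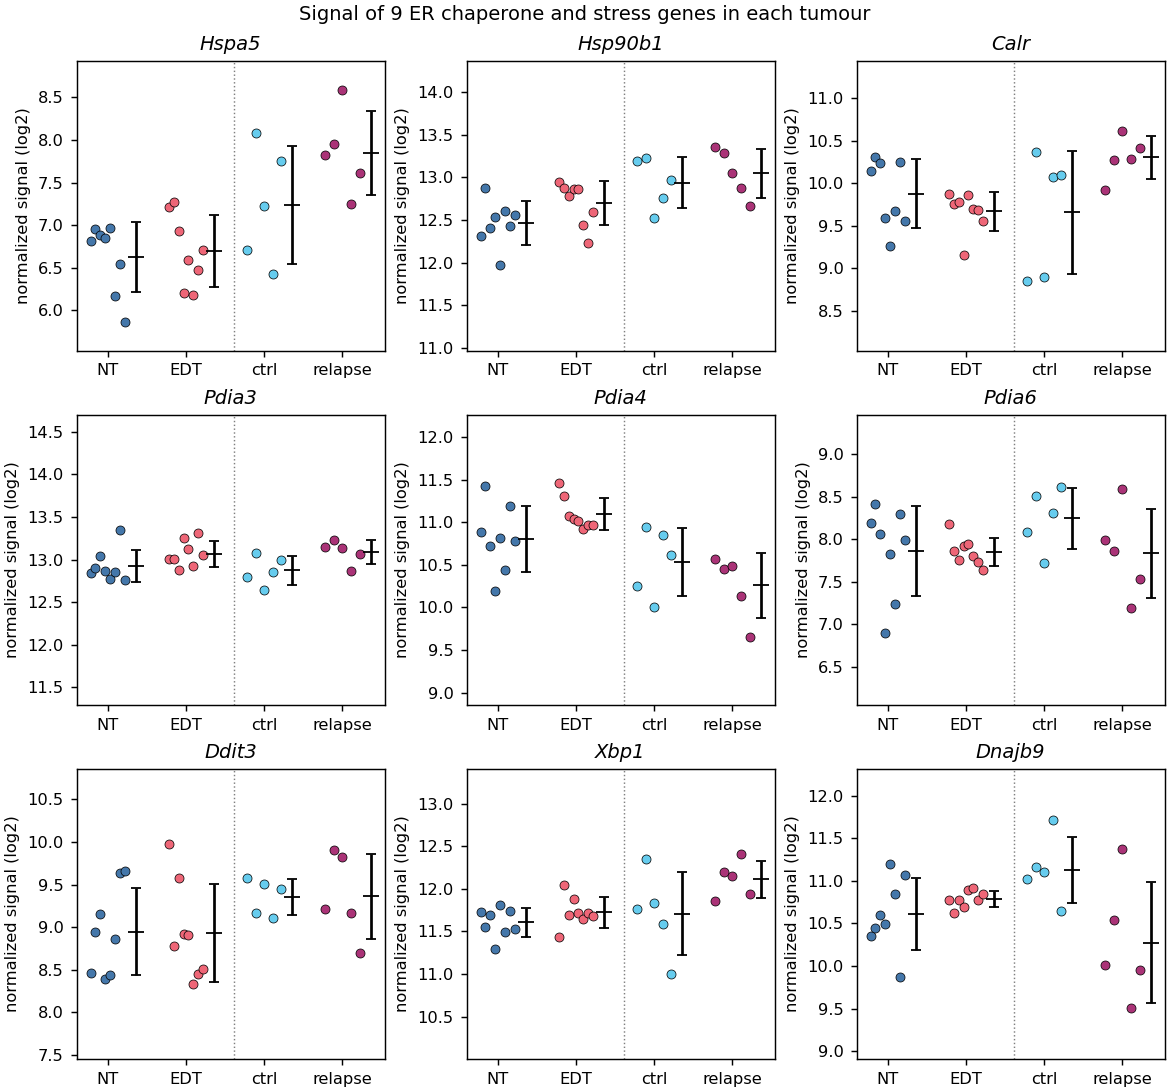
Normalized signal (log2, vertical axis) of 9 genes in every tumour of the 4 groups, with points for tumours in replicate order and bars for mean ± SD; the dotted line separates the 2 tables, which were normalized apart. EDT and NT overlap in every panel, and 4 of the 5 relapse values of Dnajb9 lie below every ctrl value.

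Hspa5 encodes BiP, the master chaperone of the ER lumen that also holds the stress sensors inactive (chr2:34772090-34776529). Its log2 signal had a lowest, median and highest value of 5.87, 6.83 and 6.97 in NT and of 6.18, 6.65 and 7.27 in EDT. The groups overlapped almost entirely, and the change was 0.06 ± 0.20 (SE, n = 8 per group, limma adjusted p = 0.833). Within EDT the arrays of 1 slide averaged 7.14 (n = 3) and those of another 6.33 (n = 3), a gap larger than that between the groups. Hsp90b1, which encodes GRP94, the ER's Hsp90 (chr10:86690841-86705444), ranged over 11.97, 12.48 and 12.87 in NT and 12.23, 12.82 and 12.94 in EDT. Its change of 0.24 ± 0.14 did not pass (adjusted p = 0.200), although 6 of 8 EDT tumours were above the NT mean. On the slide that held both groups (3 NT and 2 EDT arrays) the change was -0.12, the opposite direction.

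Calr, the calcium-binding lectin chaperone (chr8:84842088-84846931), ranged over 9.26, 9.91 and 10.31 in NT and 9.16, 9.73 and 9.87 in EDT. Every EDT tumour lay below the NT mean of 9.88, yet inside or just under the NT range, and the change was -0.21 ± 0.16 (adjusted p = 0.356). Relative to the median of all genes this change was -0.16, and with arrays centred on their medians the change itself was 0.17 and the relative one -0.12. Its membrane-bound partner Canx (chr11:50293957-50325673) could not be assessed. The probe for Canx was detected on 0 arrays of every group, as was the second of 2 Calr probes, and this says nothing about the level of either mRNA.

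The disulphide isomerases form and rearrange the bonds that hold folded proteins together. Pdia4 (chr6:47796141-47813512) had the lowest adjusted p of the members in EDT. Its log2 signal ranged over 10.20, 10.80 and 11.42 in NT and 10.92, 11.02 and 11.46 in EDT. All 8 EDT tumours were above the NT mean, but 1 of 8 was above every NT tumour, and the change of 0.29 ± 0.15 did not pass (adjusted p = 0.173). It passed when arrays were centred on their medians, at 0.63 (adjusted p = 0.0251), a setting that moved the median change of all genes to 0.29. Pdia3 (chr2:121413902-121438687) averaged 12.92 ± 0.19 in NT and 13.07 ± 0.15 in EDT (SD, n = 8), with a change of 0.15 ± 0.11 (adjusted p = 0.314). Pdia6 (chr12:17266589-17284785) averaged 7.86 ± 0.53 in NT and 7.85 ± 0.16 in EDT, with a change of -0.01 ± 0.19 (adjusted p = 0.974).

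Neither transcription factor nor the stress-induced co-chaperone passed. Xbp1 (chr11:5520641-5525993), whose mRNA the sensor IRE1 splices into an activator, averaged 11.61 ± 0.17 in NT and 11.73 ± 0.18 in EDT (change 0.12 ± 0.11, adjusted p = 0.425). The probe gives total signal, and splicing was not measured. Ddit3 (chr10:127290793-127296291), the CHOP gene, was spread over more than 1 log2 unit in each group, with 8.39, 8.90 and 9.65 in NT and 8.33, 8.84 and 9.97 in EDT. The highest EDT tumour exceeded every NT tumour and the lowest lay under all of them, and the change was -0.01 ± 0.25 (adjusted p = 0.973). On the slide with both groups the 2 EDT arrays lay below all 3 NT arrays, and the change there was -0.91 (adjusted p = 0.177, or 0.108 with slide as a fixed block over all arrays). Its second probe moved with the first across tumours (Pearson r = 0.90, Spearman rho = 0.89 over 26 arrays, as deviations from group means) and gave 0.10 (adjusted p = 0.814 over 16624 probes). Dnajb9 (chr12:44205897-44210068), the ER co-chaperone ERdj4 that binds BiP and is a target of spliced XBP1 in mice, ranged over 9.87, 10.55 and 11.20 in NT and only 10.63, 10.78 and 10.91 in EDT. All 8 EDT tumours were above the NT mean and within the NT range, with a change of 0.18 ± 0.16 (adjusted p = 0.414). Its second probe gave -0.13 (adjusted p = 0.678 over 16624 probes), the opposite direction.

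Relapsed tumours showed wider changes that also did not pass. Against ctrl, 0 of 9 ER genes passed, with 1 (Dnajb9) at an unadjusted p under 0.05, while 30.8% of all genes were called, 13.3% higher and 17.5% lower. Adjusted p-values of the 9 ran from 0.069 to 0.991, and their median log2 change was 0.11 against -0.07 over all genes. The 95% intervals reached from -1.58 to 1.36, or up to 2.98-fold down and 2.56-fold up, so with 5 tumours a group much larger changes stayed inside them than for EDT. Groups were free of overlap in 0 of 9 genes, against 7.43% of all genes for higher and 10.7% for lower values.

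**Figure D2:**
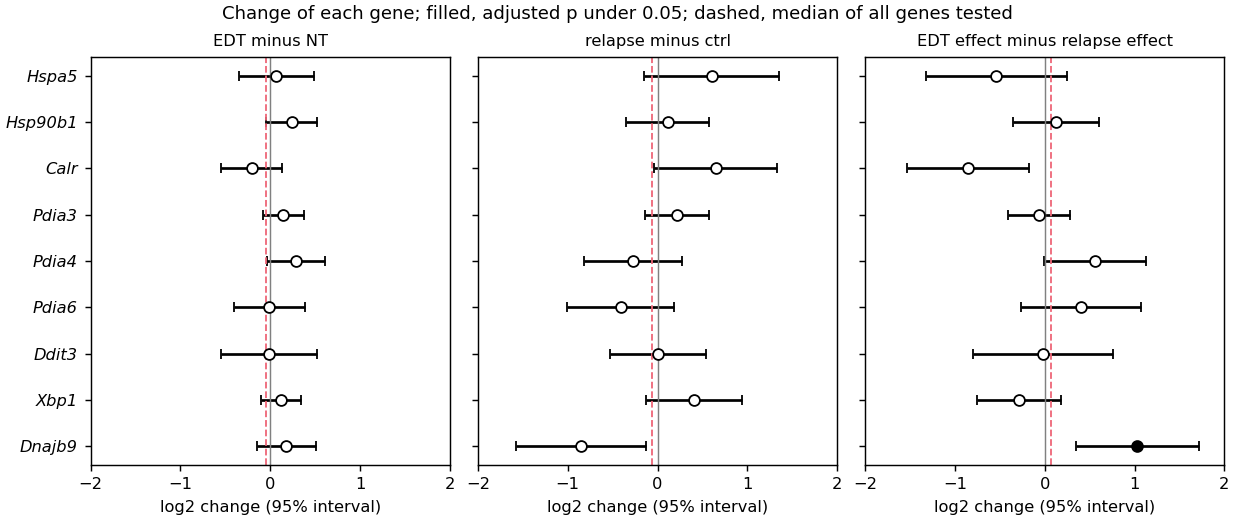
Log2 change of each of 9 genes with its 95% interval (horizontal axis) for EDT minus NT, relapse minus ctrl, and the first minus the second; filled points passed an adjusted p of 0.05 and the dashed line is the median of 9553 genes. Only Dnajb9 in the third panel is filled, at 1.03.

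Hspa5 had log2 signals of 6.71, 8.08, 7.23, 6.42 and 7.75 in the ctrl tumours and 7.82, 7.96, 8.58, 7.25 and 7.62 in the relapses. All 5 relapses were above the ctrl mean of 7.24, but 2 ctrl tumours reached into the relapse range. The change of 0.60 ± 0.34, or 1.52-fold, did not pass (adjusted p = 0.197), and it was 0.78 on 1 of the 2 slides and 0.34 on the other. Centring arrays on their medians gave 1.12 (adjusted p = 0.047), or 0.82 above the median of all genes in that setting. The authors' values gave 0.84 (adjusted p = 0.0796), an offset of 50 gave 0.50 (0.202) and no background correction 0.37 (0.223). The size of the change thus varied with the scaling as well as with how background was handled. The only Hspa5 probe was dim, at percentile 31.7 of brightness among passing probes in the first table. Calr was likewise higher in relapse without passing. Its ctrl values were 8.85, 10.36, 8.90, 10.07 and 10.09 and its relapse values 9.92, 10.27, 10.61, 10.28 and 10.42. Of the ctrl tumours 2 lay near 8.9 and 3 above 10, while every relapse lay above the ctrl mean of 9.66. The change was 0.65 ± 0.32 (adjusted p = 0.137), with 0.90 on the slide holding both low ctrl tumours and 0.27 on the other. Hsp90b1 had 12.94 ± 0.30 in ctrl and 13.05 ± 0.29 in relapse (SD, n = 5; change 0.11 ± 0.21, adjusted p = 0.712).

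Among the isomerases, Pdia3 averaged 12.87 ± 0.17 in ctrl and 13.09 ± 0.14 in relapse (change 0.22 ± 0.17, adjusted p = 0.335). Pdia4 and Pdia6 had changes below 0. Pdia4 read 10.25, 10.94, 10.005, 10.85 and 10.62 in ctrl and 10.57, 10.45, 10.49, 10.13 and 9.65 in relapse, and its change of -0.27 ± 0.25 did not pass (adjusted p = 0.421). Pdia6 read 8.08, 8.50, 7.72, 8.31 and 8.62 in ctrl and 7.99, 7.86, 8.59, 7.20 and 7.53 in relapse, where 3 relapses lay inside the ctrl range and 2 under it (change -0.41 ± 0.27, adjusted p = 0.268). The 2 slides differed for both genes: Pdia4 gave 0.10 and -0.84, and Pdia6 gave 0.05 and -1.10, the last passing on that slide alone (adjusted p = 0.0429). A second Pdia6 probe, detected on 3 to 5 arrays a group, gave 0.05 and hardly followed the first across tumours (r = 0.12, rho = 0.06, 26 arrays).

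Xbp1 had 11.76, 12.35, 11.83, 11.59 and 10.998 in ctrl and 11.86, 12.20, 12.15, 12.41 and 11.94 in relapse. All 5 relapses were above the ctrl mean of 11.71, with 1 ctrl tumour among the highest values (change 0.40 ± 0.24, adjusted p = 0.221). On the 2 slides the change was 0.086 and 0.88. Ddit3 averaged 9.36 in both groups, with SDs of 0.21 in ctrl and 0.50 in relapse (change 0.01 ± 0.25, adjusted p = 0.991).

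Dnajb9 stood lowest in relapse. Its log2 signals were 11.02, 11.17, 11.10, 11.71 and 10.64 in ctrl and 10.02, 10.54, 11.37, 9.51 and 9.95 in relapse. Of the 5 relapses, 4 lay below every ctrl tumour and replicate 3 lay above 4 of the 5 ctrl tumours. The change was -0.85 ± 0.33 with a 95% interval from -1.58 to -0.13 (limma adjusted p = 0.069). Without relapse replicate 3 the change was -1.13 and passed (adjusted p = 0.00572). In the other 9 of 10 fits that each left out 1 tumour it did not pass. Over all 10 fits the change came as near to 0 as -0.66, with limma adjusted p up to 0.157. On the 2 slides the change was -0.46 and -1.45, and the relapse with the highest value was on the slide with the smaller change. A second Dnajb9 probe gave -1.05 (adjusted p = 0.081 over 16624 probes) and followed the first with r = 0.85 and rho = 0.56 over 26 arrays.

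Each effect was also set against the other, as the EDT effect minus the relapse effect, each taken within its own table. Of the 9 ER genes 1 passed, Dnajb9, higher, with 2 at an unadjusted p under 0.05. Over all genes 16.6% passed, 9.76% higher and 6.8% lower. The Dnajb9 difference was 1.03 ± 0.33 (95% interval 0.35 to 1.72, limma adjusted p = 0.0359), made of 0.18 in EDT and -0.85 in relapse. This call was narrow. It was lost without NT replicate 7, without ctrl replicate 3 or 4, or without relapse replicate 1, 4 or 5, where the difference stayed between 0.84 and 1.04 and the adjusted p between 0.0505 and 0.0861. It was also lost with no detection filter (adjusted p = 0.0593), the mean over probes (0.0741), median centring (0.113) and slide as a fixed block (0.152). The second Dnajb9 probe gave a difference of 0.92 (adjusted p = 0.152 over 16624 probes). Calr had the opposite sign at -0.85 ± 0.33 (adjusted p = 0.0749), from -0.21 in EDT and 0.65 in relapse. The Calr difference passed without NT replicate 5 (-0.94, adjusted p = 0.048) and without ctrl replicate 2 (-1.03, adjusted p = 0.0287). It did not pass in the other 24 of 26 fits that each left out 1 tumour. Over all 26 it came as near to 0 as -0.65 (limma adjusted p up to 0.1645). Under the 9 alternatives it did not pass either (adjusted p from 0.0641 to 0.207). Pdia4 differed by 0.56 ± 0.28 (adjusted p = 0.163) and Hspa5 by -0.54 ± 0.38 (adjusted p = 0.345), and the remaining 5 genes lay between -0.29 and 0.40 with adjusted p-values from 0.411 to 0.980.

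The members also differed in how widely they spread among tumours of 1 group. The SD was smaller in EDT than in NT for 6 of 9 members, as it was for 64.4% of all genes, and the members' median SD was 0.40 in NT and 0.19 in EDT against 0.36 and 0.29 over all genes. Dnajb9 went from an SD of 0.43 in NT to 0.10 in EDT, and Pdia6 from 0.53 to 0.16. Relapse SDs were below ctrl SDs for 6 of 9 members and for 41.2% of all genes. Calr went from 0.72 in ctrl to 0.25 in relapse, while Dnajb9 went the other way, from 0.38 to 0.71.

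Across the 26 tumours, as deviations from group means, some chaperones and isomerases varied together, most of all Pdia4 and Pdia6. Xbp1 and Dnajb9 varied apart from the other members. These correlations describe arrays that share slides and a normalization. Over 36 pairs of members Pearson's r had a median of 0.18 and ran from -0.18, for Pdia3 with Dnajb9, to 0.80, for Pdia4 with Pdia6 (Spearman rho = 0.82). The Pdia4 and Pdia6 relation was 0.73 without the 2 farthest tumours, 0.92 in NT and 0.74 in EDT (n = 8 each) and 0.70 over the 10 tumours of the second table. It rests on the brightest Pdia6 probe. The second, detected on 3 to 5 arrays a group, hardly followed that probe (r = 0.12, rho = 0.06). Calr had an r of 0.56 with Pdia4 and 0.54 with Pdia6, and Hsp90b1 had 0.48 with Pdia4. Other chaperone pairs were lower, with 0.17 for Hsp90b1 and Calr, 0.20 for Hspa5 and Pdia3, and 0.23 for Hspa5 and Hsp90b1. Ddit3, not a chaperone, had 0.47 with Hsp90b1, 0.41 with Pdia6 and 0.39 with Pdia4. The usual r between any 2 genes on these arrays was not computed. Xbp1 had no r above 0.16 with another member and Dnajb9 none above 0.20.

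**Figure D3:**
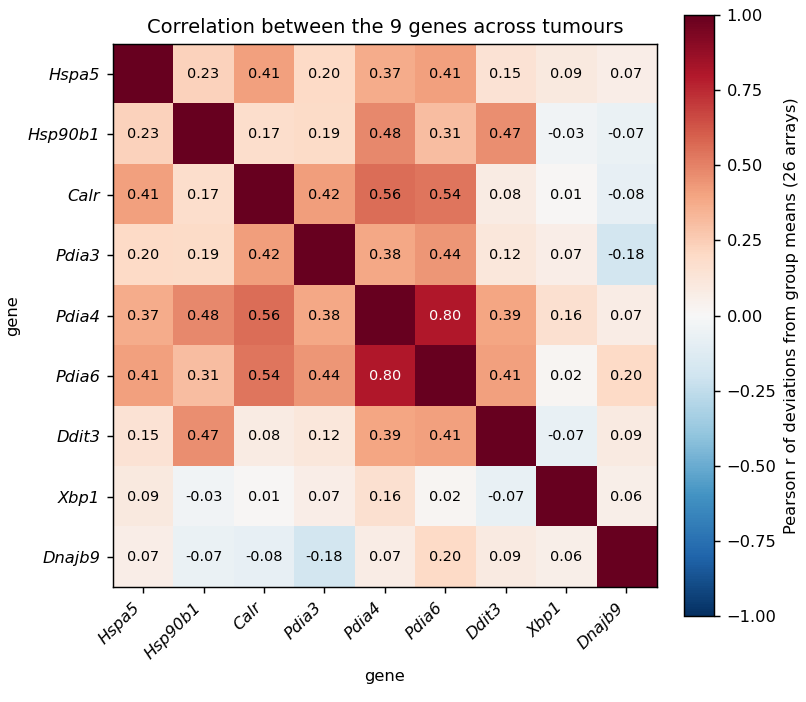
Pearson correlation between 9 genes (both axes) of deviations from the 4 group means over 26 arrays, coloured from -1 to 1. Pdia4 and Pdia6 have the highest value, 0.80, and the Xbp1 and Dnajb9 rows stay at or below 0.20.

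By the same measure, the non-members most like each gene were found among all genes tested. Calr was most like Jpt2 (r = 0.77) and Edem1 (0.76), the latter an ER protein that hands misfolded glycoproteins to degradation. Pdia4 was most like Ifitm1 (0.78) and Alg12 (0.74), the latter an ER mannosyltransferase of N-glycan assembly. Pdia6 was most like Vamp8 (0.82) and Ggcx (0.78), the ER enzyme of vitamin K-dependent carboxylation. Ddit3 was most like Cnpy3 (0.74), an ER co-chaperone of Toll-like receptors, and Angptl6 (0.73). Hspa5 was most like Glrx2 (0.77) and Arhgdib (0.75), Hsp90b1 like Pls3 (0.69) and Uap1 (0.66), and Pdia3 like Nox4 (0.73) and Slc1a3 (0.71). Xbp1 was most like Mxd4 (0.72) and Mfhas1 (0.68), and Dnajb9 like Pnpla8 (0.82) and Pdp1 (0.79). By rank these relations were weaker for most, with Spearman rho of 0.46, 0.41, 0.78 and 0.57 in the same order. The r values of this paragraph are the top among 9553 genes over 26 arrays, and were picked as the highest.

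Other ER genes were counted by list in EDT, where 29.6% of all genes were called, 14.5% higher and 15.1% lower. Of 25 tested genes of ER folding and quality control, 2 rose and 0 fell, with a median of -0.09. They were the oxidase Ero1b, which recharges disulphide isomerases (0.83 ± 0.16, limma adjusted p = 0.00101), and Erp29 (0.34 ± 0.11, adjusted p = 0.0325), a call that was lost without any 1 of 7 tumours (adjusted p up to 0.0631). Of 17 genes of ER-associated degradation 0 rose and 5 fell, among them Selenok (-0.59 ± 0.18), the ubiquitin ligase Rnf5 (-0.57 ± 0.11) and the mannosidase Man1b1 (-0.47 ± 0.10). With arrays centred on their medians 0 fell and 2 rose, so the direction for this list depended on the scaling. Of 24 genes of translocation and N-glycosylation 4 rose and 4 fell, and after median centring 8 rose and 0 fell, with Ssr2 at -0.19 and not passing. Among them, Ssr1 rose (0.98 ± 0.20) and Ssr2 fell (-0.51 ± 0.15), both subunits of the translocon-associated complex, and the signal peptidase subunit Spcs3 rose (0.52 ± 0.13). Of 8 sensors and processing proteases 0 rose and 1 fell, Atf6b (-0.39 ± 0.10, adjusted p = 0.00969), and 0 fell and 2 rose after median centring.

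Some genes of the integrated stress response, which acts through ATF4, and most genes of peptide loading passed in EDT. The markers of T cells, macrophages and other immune cells given above rose in the same tumours, and their part was not tested. Of 10 tested genes of the integrated stress response 5 rose and 0 fell, with a median of 0.45, against 14.5% of all genes called higher. Cebpb rose by 1.48 ± 0.27, Atf3 by 1.37 ± 0.37 and Nupr1 by 1.14 ± 0.32, all of them stress-induced transcription regulators. On the slide with both groups, and with slide as a fixed term, 0 of the 10 passed. Atf4 itself had 0.33 (adjusted p = 0.0948) and the CHOP target Ppp1r15a, also known as Gadd34, 0.11 (adjusted p = 0.677), both named after their values were seen. Of 8 genes of class I peptide loading 7 rose, with a median of 1.82, and 6 passed on that slide alone. The peptide transporter Tap1 rose by 3.32 ± 0.26, the tapasin-related Tapbpl by 2.61 ± 0.30 and the heavy chain H2-K1 by 2.02 ± 0.24, while Calr and Pdia3 of the same loading complex did not pass. Of 21 cytosolic chaperones 2 rose and 4 fell. Among those that fell were Cct7 (-0.89 ± 0.18) and Cct5 (-0.85 ± 0.22), both subunits of the chaperonin TRiC, and Hspa4 (-0.75 ± 0.27, adjusted p = 0.0447). The Hspa4 call held in 4 of 16 fits that each left out 1 tumour (adjusted p up to 0.0951). It held under 3 of 10 alternatives, over which the change came as near to 0 as -0.063. After median centring 0 of the cytosolic chaperones fell.

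In relapse, 3 of the 25 folding genes rose and 2 fell, with a median of -0.09, against 13.3% of all genes called higher and 17.5% lower. The ER stress target Creld2 rose by 0.96 ± 0.30 (limma adjusted p = 0.0314, lost without any 1 of 8 of the 10 tumours, up to 0.0761), the prolyl isomerase Fkbp2 rose by 0.84 ± 0.22 (adjusted p = 0.0149), and the glucosidase Mogs fell by 0.92 (SE 0.21, adjusted p = 0.00812). Of the degradation genes 1 rose, Edem1 (0.83 ± 0.29, adjusted p = 0.0482, likewise lost without any 1 of 8 tumours, up to 0.111), and 1 fell, Selenok (-1.05 ± 0.27, adjusted p = 0.0130). Of the translocation and N-glycosylation genes 4 rose and 1 fell. Ssr1 rose by 1.80 ± 0.29 and Ostc, an oligosaccharyltransferase subunit, by 0.97 ± 0.25, while Spcs3 (0.80 ± 0.28, adjusted p = 0.0488) lost its call without single tumours (adjusted p up to 0.119). Of the 8 sensors and proteases 0 rose and 2 fell. These were the genes of 2 stress sensors, Ern1, which encodes IRE1 (-1.56 ± 0.36, adjusted p = 0.00830), and Eif2ak3, which encodes PERK (-0.85 ± 0.25, adjusted p = 0.0225). The other 6 tested genes of this list did not pass. The Eif2ak3 call was lost without ctrl replicate 3 or 5 or relapse replicate 2 or 5 (adjusted p up to 0.0601). It held under 6 of 11 alternatives, over which the change ran from -0.99 to -0.28. After median centring 1 of the 8 genes rose and 1 fell.

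Integrated stress response genes in relapse counted 3 higher and 0 lower of 10, with a median of 0.72, against 13.3% of all genes called higher. The asparagine synthetase gene Asns rose by 2.09 ± 0.50 (limma adjusted p = 0.00973), Cebpb by 1.19 ± 0.31 and Cebpg by 0.89 ± 0.23, while Ddit3 had 0.01. Peptide loading again counted 7 of 8 higher, with a median of 1.73. Tap2 rose by 2.02 ± 0.38 and Tap1 by 2.11 ± 0.61 (adjusted p = 0.0215, and 0.0550 without ctrl replicate 1). On slide 6 alone 6 of the 8 passed and on slide 7 alone 2, where Tap1 was at 0.22 (adjusted p = 0.775). H2-K1 rose by 1.88 ± 0.62 (adjusted p = 0.0374, lost without any 1 of 8 of the 10 tumours, up to 0.0864). Of the 21 cytosolic chaperones 2 rose, with Cct6a at 1.001 ± 0.20, and 3 fell, with the co-chaperone Dnaja2 at -1.23 ± 0.27 and the inducible Hsp70 gene Hspa1a at -1.35 ± 0.38 (0.0505 without ctrl replicate 1, as adjusted p).

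**Figure D4:**
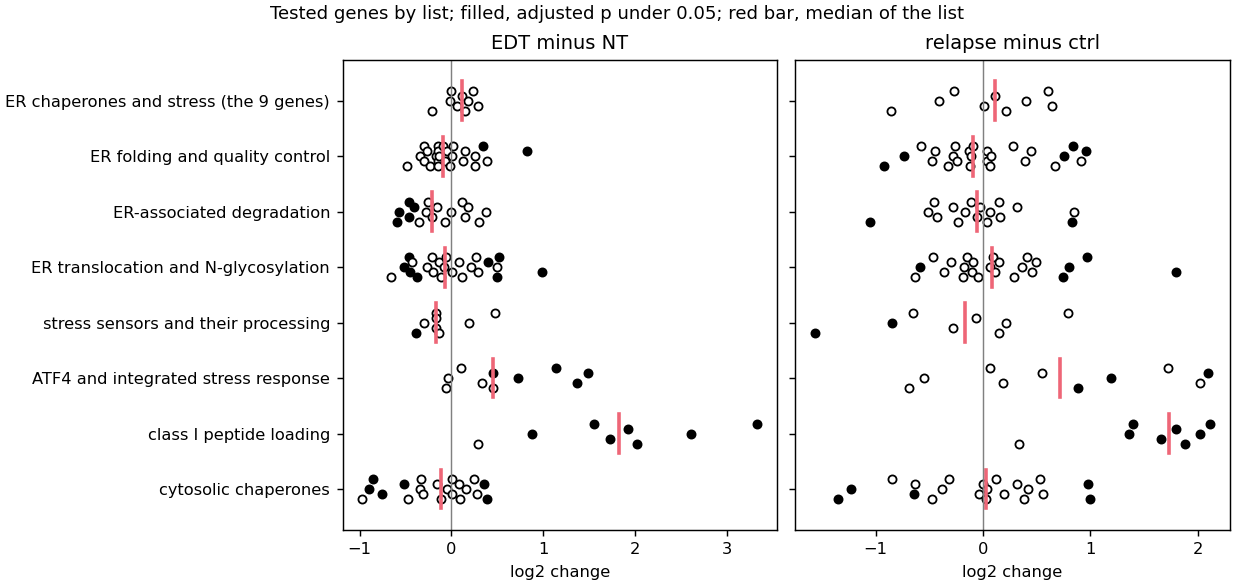
Log2 change (horizontal axis) of every tested gene of the 9 ER genes and 7 related lists, for EDT minus NT and relapse minus ctrl; filled points passed an adjusted p of 0.05 and red bars are list medians. Medians of the 9 ER genes and of the folding, degradation, translocation and sensor lists ran from -0.22 to 0.12. Class I peptide loading lies to the right at medians of 1.82 and 1.73.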

How the data were processed

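RNA of 26 tumours was measured on bead arrays. The deposited tables give each probe a mean bead intensity with no background correction or normalization, as the values show. The deposited detection p-values lie beside each signal. In the second table the deposited bead counts per probe were 26 to 56 for the probes used, and the deposited standard errors were 3.19% to 9.62% of the signal. The authors also deposited processed log2 values, which kept each array's rank order and rose with slopes of 1.01 to 1.02 against log2 signal above 2000; array medians were 4.66 to 4.86. No centring of genes is visible in these slopes; method and software are not stated in the sources used here. They served only as an alternative.

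Of 45264 and 45281 probes, 4 rows with exchanged or mistyped cells and 17 probes found only in the second table were left out. Platform annotation gave 34871 probes 1 symbol, 18 several and 10371 none. Background correction from the detection p-values, addition of an offset of 16 and quantile normalization were run per table with the neqc function (limma 3.58.1, R 4.3.3). In 1 group or more, 5 arrays had to detect a probe at p under 0.01, which left 16624. The brightest passing probe stood for each gene. Probes differ in binding, so levels are not compared between genes. Tests were lmFit and eBayes, two-sided, Benjamini-Hochberg threshold 0.05, over 16 arrays for EDT against NT, 10 for relapse against ctrl and 26 for the difference. Tests were checked on simulated data with 50 changed genes per size. Log2 changes of 0.5, 1, 2 and -1 were called in 30%, 70%, 94% and 72% of them for EDT. For relapse the shares were 2%, 32%, 92% and 26%, so changes of 1 or less were mostly missed there. Far fewer genes changed in the simulation than were called in the data, so these shares need not hold for the data.

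Slides were read from the array barcodes in the labels. EDT and NT shared 1 of 5 slides, and ctrl and relapse shared both of theirs. Alternatives were median centring, the authors' values, no background correction, an offset of 50, no detection filter, the mean over probes, slide as a fixed or random block, single slides, replicate number as a block, and leaving out each tumour. The members and the gene and marker lists were chosen with earlier results of these data known. Named genes of a list are the 3 with the largest changes among those past the test, and the 2 most alike non-members. Promoter sequences are from RefSeq, build GRCm38.p6.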

Additional observations from a re-analysis of the deposited data

Results flagged for a closer look

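Among 36 combinations of 9 ER genes and 4 groups checked for a tumour far from the others, 1 stood out, where chance gives about 1 in 20. In EDT the Calr value of replicate 4 was 9.16, and the nearest of the other 7 was 9.55. Among the ER genes the EDT and relapse effects differed by limma's test for Dnajb9, by 1.03 (adjusted p = 0.0359). For Calr every EDT tumour was below the NT mean and every relapse above the ctrl mean, but neither change passed, the EDT change was 0.17 with median centring, and the tested difference of -0.85 did not pass (adjusted p = 0.0749).

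Genes of the related lists were tested for the EDT effect minus the relapse effect. Over all genes 9.76% passed higher and 6.8% lower. Higher and lower calls were 2 and 2 of 25 tested folding genes and 0 and 1 of 17 degradation genes. For translocation and glycosylation they were 0 and 4 of 24, and for sensors and proteases 0 and 0 of 8. Stress response genes had 1 and 1 of 10, peptide loading 0 and 1 of 8, and cytosolic chaperones 1 and 3 of 21. In ER folding the difference was -1.14 for Fkbp2 (adjusted p = 0.00482), -0.84 for Prkcsh (0.00771) and 0.65 for Mogs (0.0277). In degradation it was -0.58 for Nploc4 (adjusted p = 0.0482), a call lost without any 1 of 18 of the 26 tumours (up to 0.104) and under 5 of 9 alternatives (up to 0.224). For the translocation and glycosylation genes it was -1.21 for Ddost (adjusted p = 0.000509), -1.01 for Ssr2 (0.0125) and -0.76 for Ostc (0.0268). For stress response genes it was 1.91 for Atf3 (adjusted p = 0.0318) and -1.64 for Asns (0.0219), and for B2m of peptide loading -1.08 (0.0105). For cytosolic chaperones it was -0.98 for Tcp1 (adjusted p = 0.0159), -0.87 for Stip1 (0.0159) and 0.70 for Cct4 (0.0184). Calls were also lost without single tumours for Mogs (adjusted p up to 0.0680), Ostc (0.0570), Atf3 (0.0790) and Asns (0.0546). With median centring 10 of the 13 calls named here were lost, and those for Fkbp2, Ddost and Atf3 were not.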

How the results depend on the processing

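That no member passed held under most alternatives: for EDT against NT members called higher were 0, except 1 with median centring (Pdia4), and for relapse against ctrl 0 higher, except 1 with median centring (Hspa5), and 0 lower, except 1 on slide 7 alone (Pdia6). In the difference of effects, members called higher went from 1 to 0 with median centring, no detection filter, the mean over probes and slide as a fixed block, where Dnajb9 stayed between 0.98 and 1.08 with adjusted p from 0.0593 to 0.152. Without single tumours, members higher and lower were 0 and 0 throughout for EDT, 0 and 0 to 1 for relapse, and 0 to 1 and 0 to 1 for the difference. Genes called for EDT were 2831, or 2340 to 3099 without single tumours, 1045 with slide as a fixed block and 480 on slide 5 alone. Genes called for relapse were 2944, or 2125 to 3943 without single tumours, and 568 on slide 6 alone. For the difference they were 1582, or 1035 (without relapse replicate 5) to 2497 (without relapse replicate 3), 647 with median centring and 844 with slide as a fixed block. Of the calls, 48.9% were higher for EDT and 43.1% for relapse, against 92.9% and 76.1% with median centring and 69.8% and 53.9% in the authors' values, and the median change of all genes went from -0.05 and -0.07 to 0.29 and 0.30, and to 0.07 and 0.04. Signs turned only for members that did not pass. For EDT they turned with median centring (Calr 0.17, Pdia6 0.38, Ddit3 0.36), the authors' values (Pdia6 0.14, Ddit3 0.12), the mean over probes (Ddit3 0.042) and slide as a fixed block or slide 5 alone (Hsp90b1 -0.12). For relapse they turned with median centring (Pdia4 0.030, Pdia6 0.087), the authors' values (Hsp90b1 -0.020), the mean over probes (Ddit3 -0.12), slide 6 alone (Pdia4 0.10, Pdia6 0.046) and slide 7 alone (Hsp90b1 -0.094, Ddit3 -0.34). For the difference they turned with median centring (Pdia3 0.090), the authors' values (Pdia3 0.13), the mean over probes (Ddit3 0.16) and slide as a fixed block (Hsp90b1 -0.23). Without single tumours, Hspa5 ran from -0.045 to 0.14, Pdia6 from -0.15 to 0.068 and Ddit3 from -0.16 to 0.087 for EDT, and Ddit3 from -0.13 to 0.17 for relapse and from -0.19 to 0.11 for the difference. The cause of these shifts was not tested. Same-numbered tumours correlated between -0.06 and 0.34, so the numbers were not taken as a pairing; with the replicate block, members called stayed at 0, 0 and 1, and the Dnajb9 difference was 1.03 (adjusted p = 0.0473). Limits: bulk signal, 1 slide shared by EDT and NT, 5 tumours a group at relapse, and no usable Canx probe.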
